A study of Mus musculus with 2 samples.

Results

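The genes described here were the 5 tissue kallikreins Klk1, Klk1b26, Klk1b22, Klk1b27 and Klk1b5. They were taken by symbol from the feature list of both libraries, where all 5 of 5 were found among 37 Klk genes and 48825 features. Parotid gland (PG) cells of female C3H mice were profiled by single-cell RNA-seq with droplet 3' chemistry, which counts unique molecular identifiers (UMIs). The IR library came from glands that had received 6 Gy per day for 5 days (30 Gy in all) when the mice were 6 to 10 weeks old, and was made 10 months later, at about 1 year of age. The control library came from mice of the same age that were not irradiated. Each library pooled 2 mice and there was 1 library per condition, so the mice cannot be separated, no difference between conditions has a replicate check and no test was possible. The intervals given are 95% intervals that cover counting error only.

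Tissue kallikreins are secreted serine proteases. KLK1, the gland's true tissue kallikrein, releases kinins from kininogens, and in salivary glands the protein is known from the striated ducts, whose cells are rich in mitochondria and modify the ions of saliva. The mouse carries an expanded Klk1b family of close Klk1 relatives, best known from the granular ducts of the submandibular gland, which include growth-factor-processing enzymes.

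All 5 members lie on the plus strand of chromosome 7 (GRCm38, the build also called mm10) and are annotated as protein-coding genes with 5 exons in the transcript used. In genomic order they are Klk1b26 at chr7:44012168-44016968, Klk1b27 at chr7:44052290-44056712, Klk1b22 at chr7:44112673-44116922, Klk1b5 at chr7:44215945-44220703 and Klk1 at chr7:44225360-44229618. They span 217451 bases, and Klk1b5 ends 4656 bases before Klk1 begins. Their transcripts were alike, which bears on how far reads could be told apart. Klk1 and Klk1b5 were 94.9% identical over 952 aligned bases, whereas the other 9 pairs were between 86.1% and 89.7% identical. Of the 61-base windows in the last 500 bases of each transcript, where 3' reads fall, 21.4% of those of Klk1 and 19.5% of those of Klk1b5 also occurred in another gene's transcript, mostly in each other's. The share was 12.3% for Klk1b27, 9.55% for Klk1b26 and 8.18% for Klk1b22, so most of their windows were unique. Klk1b5 values are therefore uncertain beside the far higher level of Klk1.

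The 100 bases before each annotated start are shown because 4 of the members share a stretch there that Klk1 does not show, although 2 of those 4 differed from Klk1 in the cells that held their UMIs and the others did not. The sequences are from RefSeq (GRCm38.p6, plus strand), in which all 5 members were matched, and capitals mark the motif TTTAAA. The RefSeq starts of Klk1b26 and Klk1b5 lie inside the longer genes given above.
Klk1 (chr7:44225260-44225359): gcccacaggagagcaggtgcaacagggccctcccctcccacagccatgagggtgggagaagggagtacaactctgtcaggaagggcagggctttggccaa
Klk1b26 (chr7:44012578-44012677): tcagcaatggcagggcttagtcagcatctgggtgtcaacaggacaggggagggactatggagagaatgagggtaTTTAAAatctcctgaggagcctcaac
Klk1b22 (chr7:44112573-44112672): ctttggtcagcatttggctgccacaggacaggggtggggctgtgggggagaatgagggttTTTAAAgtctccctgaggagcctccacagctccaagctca
Klk1b27 (chr7:44052190-44052289): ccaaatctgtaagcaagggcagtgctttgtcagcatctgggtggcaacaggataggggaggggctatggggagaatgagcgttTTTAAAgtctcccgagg
Klk1b5 (chr7:44216374-44216473): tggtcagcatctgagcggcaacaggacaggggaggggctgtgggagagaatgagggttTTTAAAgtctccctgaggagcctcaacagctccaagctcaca
TTTAAA, which reads the same on both strands, stood in this window of 4 of the 5 members and in 4.39% of the same 100-base windows of 32851 promoters. In those 4 it began 12 bases after the start of a second shared run, AGAATGAG, which either strand held in 0.347% of all such windows. For Klk1 the run AGAATGAG lay 40 bases after the annotated start, outside the shown window. The sequence searched ended too soon after that run to show whether TTTAAA follows it at the same spacing. Whether Klk1 lacks the pair therefore cannot be read from these windows. These matches are descriptions of letters and say nothing about a factor.

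In all there were 22707876 UMIs over 5550 control barcodes and 23890757 over 7793 IR barcodes. A limit of 200 genes from below and of 5% mitochondrial UMIs from above left 3378 control and 5286 IR cells, whose medians were 2908 and 2462 UMIs. The libraries shared 12 barcodes, 3 of them among kept cells. Clusters were made with every Klk gene removed from the clustering, so the members could be compared between the resulting classes. The striated duct-like class comprised 77 control and 25 IR cells. Its marker genes were present: Fxyd2, a regulator of the sodium pump, held 1275 and 280 UMIs (18637 and 12415 CPM, UMIs per 1000000 UMIs of the class), Crisp3 441 and 472 UMIs, and keratin 7 (Krt7) 63 and 20 UMIs. Of its rarer markers, Scnn1b had 5 and 6 UMIs, Krt19 8 and 4, Cldn4 13 and 7 and Kcnk1 2 in each library, whereas Scnn1g and Cftr were at 0 UMIs in both libraries. Ly6d had 5 UMIs in control and 0 in IR, where other cells stood at 30.7 CPM. By the naming rule the class met 4 of 10 striated duct markers and also 3 of 5 red blood cell markers. These cells were shallow, with medians of 727 and 720 UMIs. Their median mitochondrial shares were low, at 0.230% in control and 0.791% in IR, although striated duct cells are known as rich in mitochondria. Whether the class stands for typical striated duct cells was not tested. Haemoglobin transcripts made up 3.66% of the control and 0.129% of the IR UMIs of the class, and the acinar transcript Bpifa2 12.3% and 10.4%. Scaled without haemoglobin genes, Klk1 in the class was at 51526 CPM in control and 40311 CPM in IR. The part of Bpifa2 alone was not tested.

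Klk1 was the leading kallikrein of the PG and was concentrated in the striated duct-like cells. The class held 3396 Klk1 UMIs in control, or 49641 CPM (95% interval 47986 to 51339), and 908 in IR, or 40259 CPM (37683 to 42965). A UMI of Klk1 was seen in 70 of 77 control cells (90.9%) and 20 of 25 IR cells (80%). These cells were 2.28% of the kept control cells and 0.473% of the kept IR cells, yet they held 72.9% and 43.5% of the kept Klk1 UMIs.
The level of Klk1 in every other class was far lower. In control, striated duct-like cells exceeded acinar cells 1151-fold (966 to 1383), Etv1+ cells 2136-fold (1835 to 2499), intercalated duct-like cells 89.7-fold (77.4 to 105) and B-cells 386-fold (343 to 436). In IR the same ratios were 3021-fold, 2115-fold, 67.7-fold and 1020-fold. The ratios to intercalated duct-like cells rest on few of those cells: 1 control cell held 108 of the 186 Klk1 UMIs of that class, whose level without it was 232 CPM, and in IR a single cluster of 54 cells held 405 of 431. Klk1 stood at 43.1 CPM in control and 13.3 CPM in IR acinar cells, and at 23.2 and 19.0 CPM in Etv1+ cells, which are acinar-related cells marked by the transcription factor Etv1.
B-cells served as the background class, since they are not known to make this enzyme. They held 129 CPM of Klk1 in control and 39.5 CPM in IR, with a UMI in 163 of 837 and 63 of 833 cells (medians of 2539 and 2175 UMIs). After each cell was thinned to 1000 UMIs the B-cell shares were 9.23% of 823 and 3.96% of 809 cells, against 94.4% of 18 and 66.7% of 9 striated duct-like cells that were deep enough. The acinar, Etv1+, T-cell and stromal levels of Klk1 were at or below the B-cell level of their library or overlapped it, except that IR T-cells stood at 56.4 CPM (51.2 to 62.0), where a single cell held 80 of 427 UMIs and the level without it was 45.9 CPM. Whether these levels are background or expression was not tested. Control macrophages stood at 281 CPM, but 1 cell held 67 of their 107 UMIs.

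**Figure D1:**
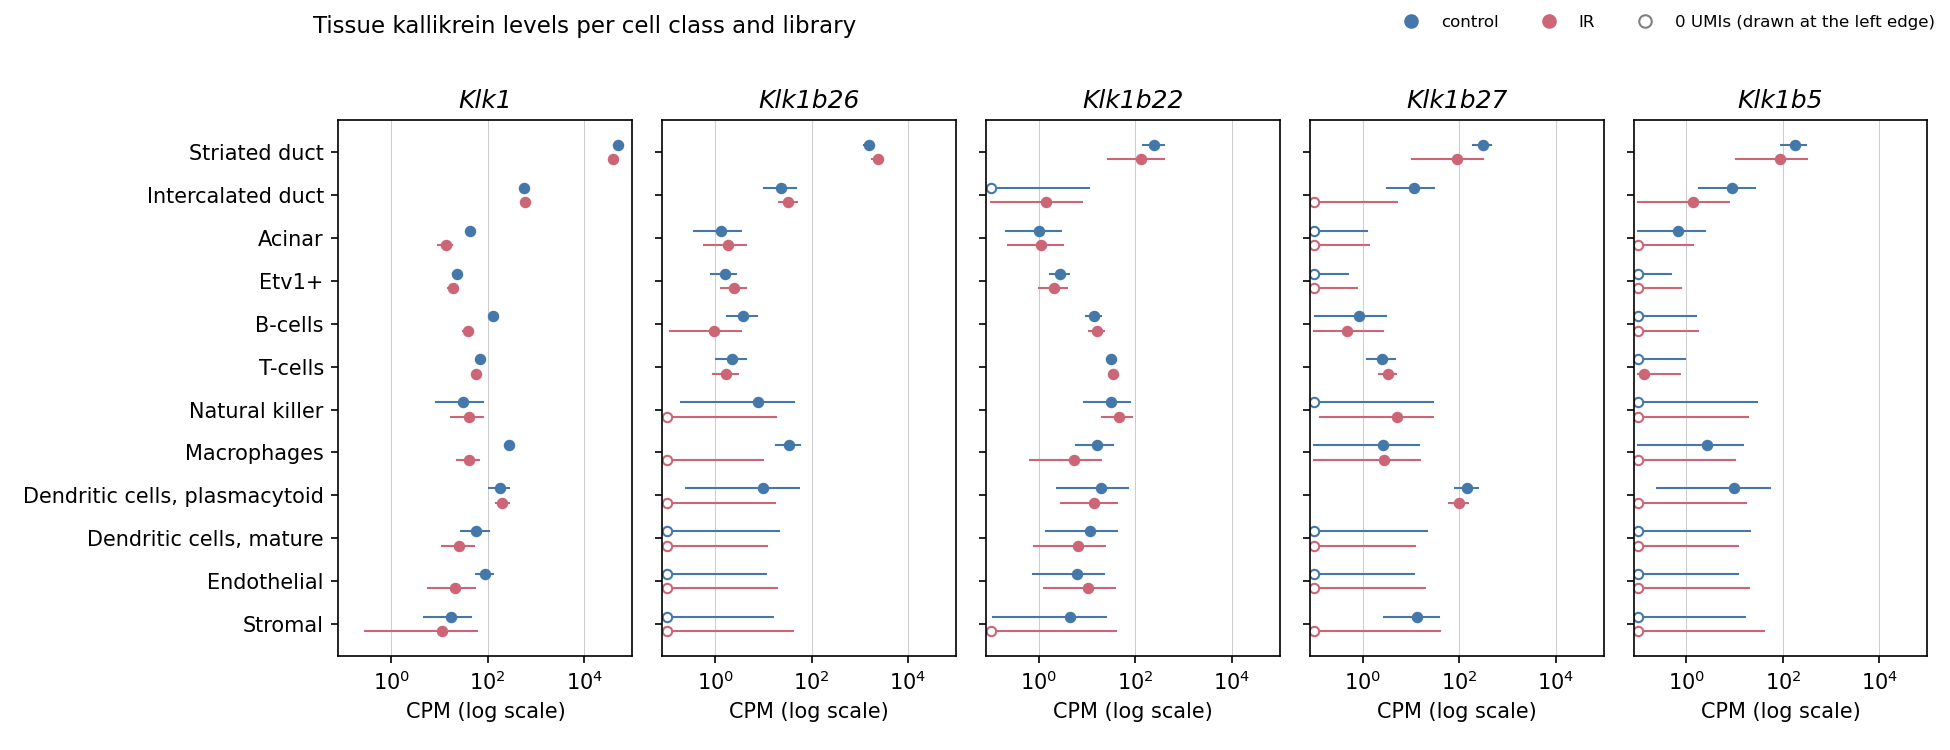
Level of each tissue kallikrein in 12 cell classes, in CPM on a log axis, for the control (blue) and IR (red) library, with 95% Poisson intervals and open circles for classes with 0 UMIs. Klk1 and Klk1b26 are highest in striated duct cells (49641 and 1535 CPM in control), whereas Klk1b27 has a second high class, the plasmacytoid dendritic cells (149 CPM in control and 98.6 CPM in IR).

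Single striated duct-like cells differed widely in Klk1. Its share of a cell's UMIs ranged from 0% to 26.9% in control with a median of 4.07%, and from 0% to 20.03% in IR with a median of 1.98%. The interquartile range ran from 0.371% to 8.33% in control and from 0.142% to 7.62% in IR, so the spread between cells was far wider than the gap between the libraries. In control 31 of 77 cells gave more than 5% of their UMIs to Klk1, and in IR 9 of 25. Fxyd2 had medians of 1.63% and 1.34% and interquartile ranges of 0.998% to 2.31% and 0.577% to 1.60%.
The IR level of Klk1 in these cells was 0.811 times the control level (0.753 to 0.873). Only Klk1 and Klk1b26 reached 100 UMIs over both libraries, and neither passed a 2-fold difference. Of the 129 genes of the class that could be compared, 5.43% were at least 2-fold higher in IR and 6.98% at least 2-fold lower. The direction for Klk1 was not stable: when the cells in the top 6% of doublet scores were left out the ratio was 1.03 (0.958 to 1.11), and with trimmed-mean (TMM) scaling it was 0.527.

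**Figure D2:**
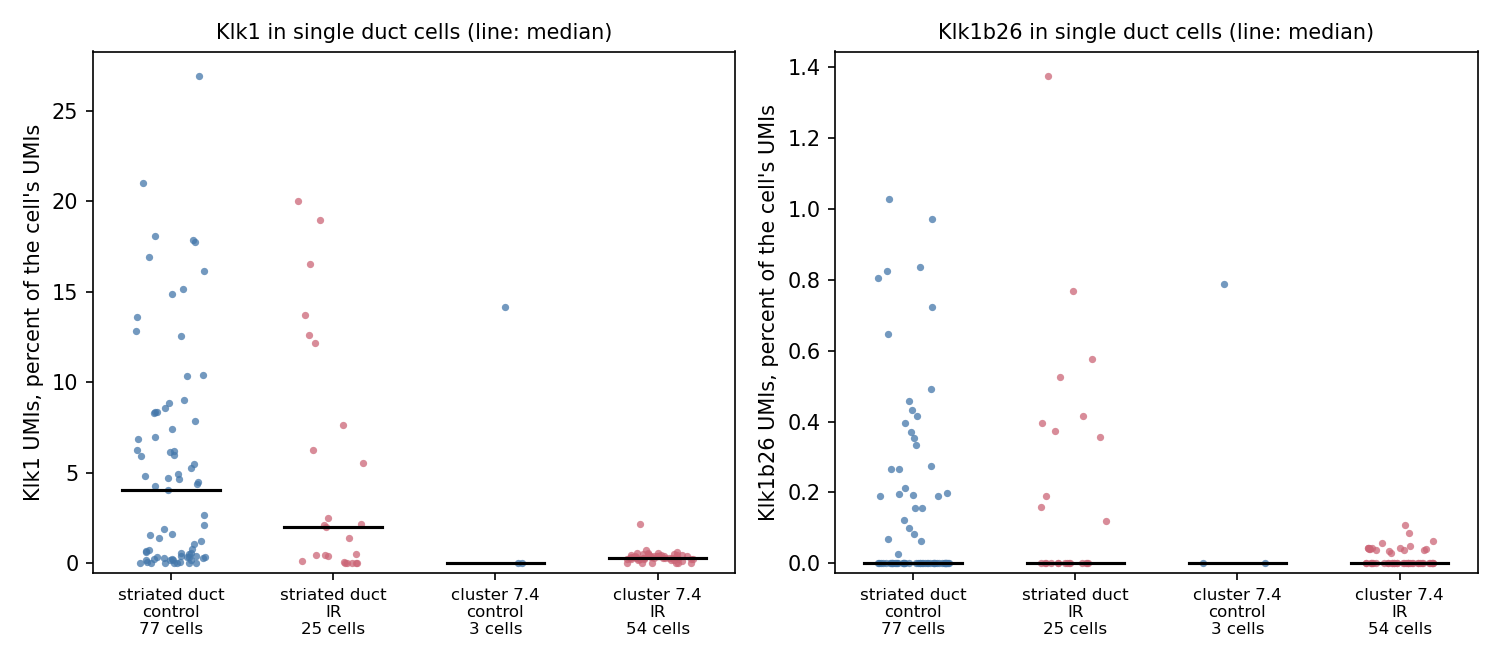
Share of each cell's UMIs taken by Klk1 (left) and Klk1b26 (right), in percent, in striated duct cells and in intercalated duct cluster 7.4, with 1 point per cell and a line at the median. Striated duct cells spread from 0% to 26.9% Klk1 in control, while the 54 IR cells of cluster 7.4 lie close to their median of 0.318%.

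Klk1b26, known as an epidermal growth factor-binding protein, had its UMIs in the same class as Klk1 and was the second member of the duct. Striated duct-like cells held 105 UMIs in 32 of 77 control cells (1535 CPM, 1255 to 1858) and 53 UMIs in 11 of 25 IR cells (2350 CPM, 1760 to 3074). No other main class passed 35 CPM, and acinar cells held 4 and 5 UMIs. Nearly every cell with Klk1b26 also had Klk1, 31 of 32 in control and 11 of 11 in IR, which is close to what the share of Klk1 alone gives (29.1 and 8.8 cells).
The balance of Klk1b26 and Klk1, in UMIs pooled over cells, differed between the libraries. The median cell of the class held 0 Klk1b26 UMIs in both. Striated duct-like cells held 3.09 Klk1b26 UMIs per 100 Klk1 UMIs in control (2.52 to 3.76) and 5.84 in IR (4.34 to 7.70). The IR value was 1.89 times the control value (1.32 to 2.67), a ratio of UMIs within a library that needs no scaling. Over all settings tried it lay between 1.52 and 3.46, and was lowest without the cell richest in Klk1 in each library. A single IR cell held 15 of the 53 Klk1b26 UMIs, and another gave 0.768% of its 1824 UMIs to Klk1b26. Of the UMIs of these 2 cells, 12.2% and 2.52% were Klk1. The first of them, which held the 15 Klk1b26 UMIs, was the IR cell left out as richest in Klk1. It held 133 Klk1 UMIs. Another IR cell, of 664 UMIs, held as many Klk1 UMIs and 0 Klk1b26 UMIs, and was kept. Values with that other cell left out instead were not computed. The ratio thus rests on few IR cells, and its value without both cells named for Klk1b26 was not computed. A difference in the typical cell cannot be read from it. The CPM of Klk1b26 itself was 1.53 times the control level in IR (1.08 to 2.15), but 1.17 (0.785 to 1.72) without the cell richest in Klk1 in each library. In B-cells the balance could not be set apart, with 9 Klk1b26 UMIs in control and 2 in IR.

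Most Klk1 transcripts lay outside the kept cells. Barcodes left out for more than 5% mitochondrial UMIs held 11515 of 16788 Klk1 UMIs in control (68.6%) and 7778 of 10161 in IR (76.5%), while those left out for fewer than 200 genes held 3.66% and 2.91%. The barcode with most Klk1 carried 1419 Klk1 UMIs in control, of 13516 UMIs with 12.4% mitochondrial, and 1506 in IR, of 15884 UMIs with 19.8% mitochondrial. In the left-out group 39 control and 37 IR barcodes had 10 or more Klk1 UMIs.
Klk1b26 was also higher relative to Klk1 in IR among the left-out barcodes. Over the mitochondrial limit Klk1 stood at 5714 CPM in control (5610 to 5820) and 2872 CPM in IR (2809 to 2937), whereas Klk1b26 stood at 143 CPM (127 to 160) and 219 CPM (202 to 238). That is 2.50 Klk1b26 UMIs per 100 Klk1 UMIs in control (2.22 to 2.81) and 7.64 in IR (7.01 to 8.30), a ratio of 3.05 (2.64 to 3.54). A single IR barcode held 269 of the 594 Klk1b26 UMIs, and a single control barcode 76 of 288. Without them the values were 1.84 (1.60 to 2.11) and 5.18 (4.62 to 5.79) per 100, a ratio of 2.81 (2.35 to 3.37). Without the 2 barcodes richest in Klk1 in each library they were 2.44 (2.12 to 2.79) and 5.10 (4.48 to 5.79) per 100. Both sets of barcodes come from the same 2 libraries, so they do not replicate each other.

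**Figure D3:**
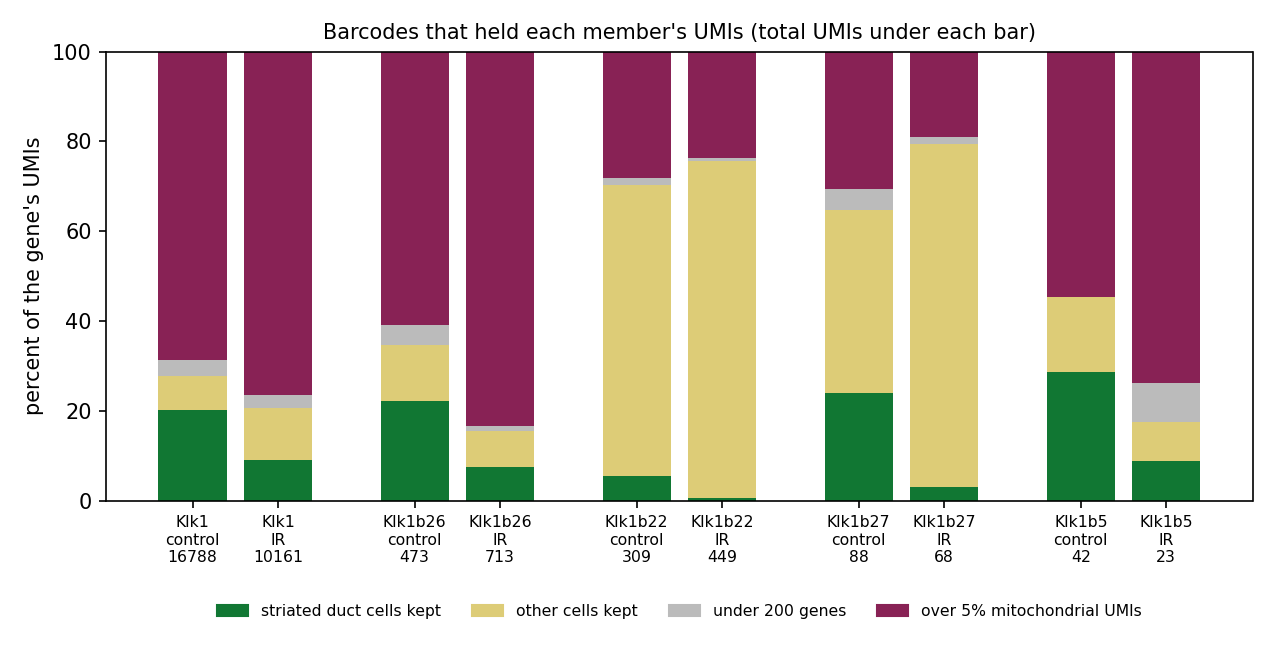
Percent of each member's UMIs in striated duct cells kept, other cells kept, barcodes under 200 genes and barcodes over 5% mitochondrial UMIs, with 1 bar per gene and library and the total UMIs under it. Klk1 and Klk1b26 lie mostly in barcodes over the mitochondrial limit (68.6% and 60.9% in control), whereas Klk1b22 lies mostly in kept cells that are not striated duct (kept cells held 70.2% in control and 75.7% in IR).

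Klk1 was also found in duct-like cells outside the striated class, at 553 CPM in control and 595 CPM in IR over all intercalated duct-like cells, but different clusters held these cells in the 2 libraries. Of the intercalated duct-like clusters, cluster 7.4 comprised 3 control and 54 IR cells and so is almost a cluster of 1 library, which may be the library rather than a type. Its leading genes held markers of both duct types, Dcpp2 and Dcpp3 of the intercalated and Fxyd2 and Crisp3 of the striated duct. In IR, 49 of its 54 cells had Klk1, with 405 UMIs (3421 CPM, 3096 to 3771), 86.7 times the B-cell level (68.2 to 111). Unlike striated duct-like cells its cells were even: their interquartile range was 0.237% to 0.435% Klk1 and the highest cell had 14 UMIs. The striated markers Fxyd2 and Crisp3 were present at 149 and 134 UMIs, and 39.3% of its UMIs were Bpifa2, whose part was not tested. Klk1b26 stood at 5.43 per 100 Klk1 UMIs (3.37 to 8.34), with 22 UMIs in 18 cells. In the IR cluster 7.3, with 62 cells, Klk1 was at 33.8 CPM. In control 1 of the 3 cells of cluster 7.4 carried all 108 Klk1 UMIs. Cluster 7.5, with 24 control cells and 0 IR cells, held 35 Klk1 UMIs in 12 cells (1403 CPM).

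Klk1b22, another epidermal growth factor-binding protein of the family, had a different distribution: most of its UMIs were in lymphocytes. In CPM its level was still highest in striated duct-like cells, at 7.96 times that of T-cells in control (4.49 to 13.3). In IR this ratio was 3.92 (0.803 to 11.6). The striated duct-like cells held 17 UMIs in control (248 CPM, 145 to 398) and 3 in IR (133 CPM, 27.4 to 389), which was 7.83% and 0.882% of its kept UMIs. T-cells held 124 UMIs in 104 of 1198 control cells (31.2 CPM, 25.96 to 37.2) and 257 UMIs in 237 of 2867 IR cells (34.0 CPM, 29.9 to 38.4). Natural killer cells had 31.0 and 45.6 CPM from 4 and 9 UMIs. B-cells had 13.8 and 15.9 CPM, and acinar cells held 3 UMIs in each library.
Among T-cells it was highest in cluster 4. The leading genes of cluster 4 included Foxp3, Il5 and Tnfrsf4, known from regulatory and type 2 helper T-cells. They also included Il1rl1, Ccl1, Ccr4 and Il17f, and no single T-cell type is assigned to the cluster here. That cluster had 43 UMIs in 32 of 218 control cells (65.3 CPM, 47.3 to 88.0) and 89 UMIs in 75 of 542 IR cells (62.5 CPM, 50.2 to 76.9). Its level exceeded that of B-cells 4.74-fold (2.93 to 7.74) in control and 3.93-fold (2.61 to 6.06) in IR, and that of T-cell cluster 1 2.23-fold (1.45 to 3.40) and 2.54-fold (1.81 to 3.58). Thinned to 1000 UMIs, 5.56% of control and 5.28% of IR cells of cluster 4 had a UMI, against 1.34% and 1.61% of B-cells. The values are thus low per cell, with at most 4 UMIs in any cell of the cluster, and the libraries differed by less than counting error (0.957, 0.658 to 1.41).
These UMIs did not keep the ratio of the striated duct. Per 100 Klk1 UMIs the striated duct-like cells held 0.501 Klk1b22 UMIs in control (0.291 to 0.803) and 0.330 in IR (0.0680 to 0.969). T-cells held 45.8 (36.7 to 56.8) and 60.2 (51.4 to 70.4), and B-cells 10.7 (7.19 to 15.4) and 40.2 (26.02 to 60.97). The T-cell and B-cell intervals lay above the striated duct interval in both libraries. Between conditions, Klk1 in B-cells was at 0.307 of the control level in IR (0.237 to 0.393), whereas Klk1b22 was at 1.15 (0.687 to 1.94). The Klk1 difference in B-cells was past 2-fold, as were 0.672% of the 4463 genes compared there that were lower in IR and 1.41% that were higher. In IR T-cells Klk1b22 was at 1.09 times the control level (0.875 to 1.36).

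**Figure D4:**
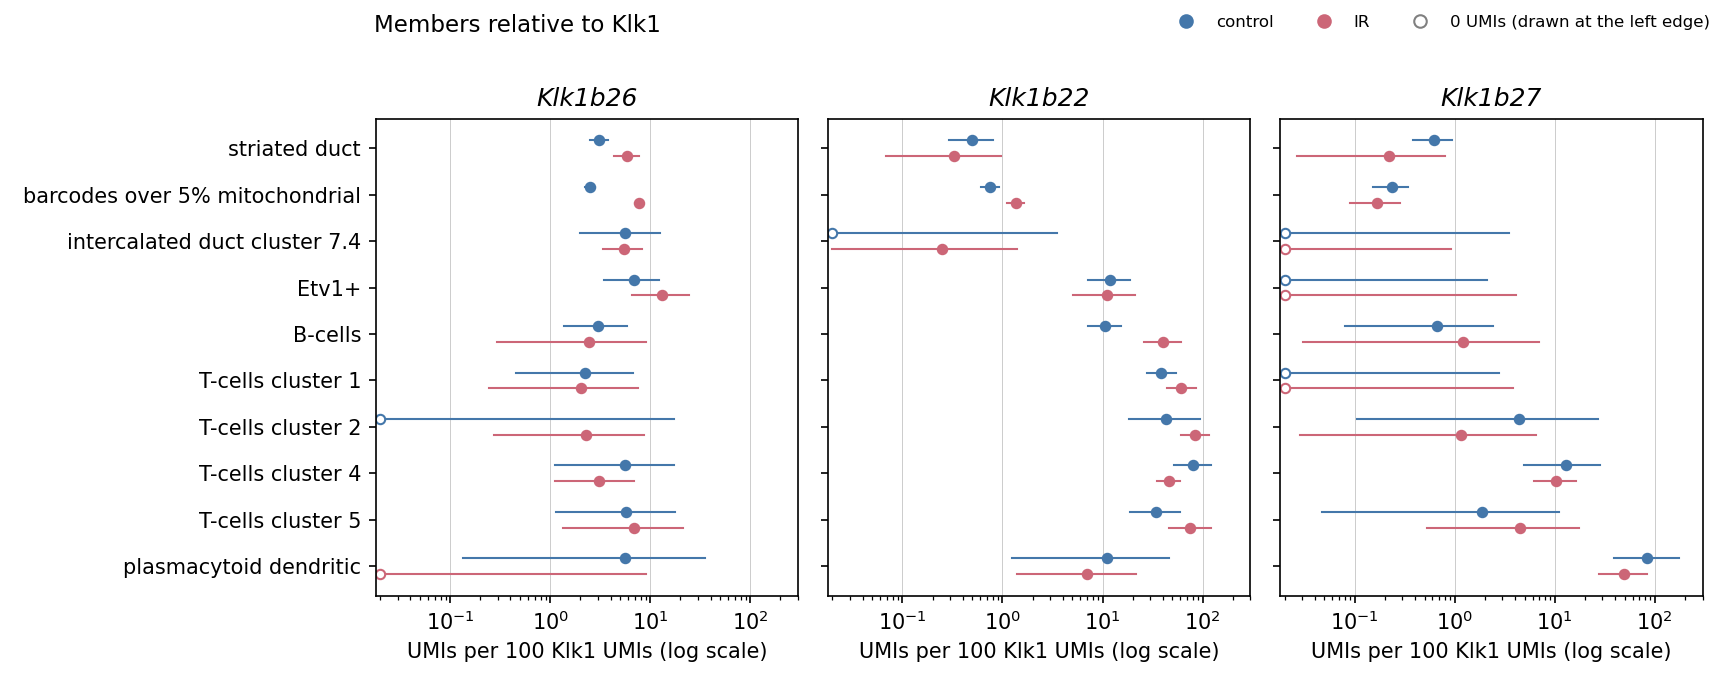
UMIs of Klk1b26, Klk1b22 and Klk1b27 per 100 Klk1 UMIs on a log axis in 10 sets of cells or barcodes, for control (blue) and IR (red), with 95% intervals and open circles for 0 UMIs. Klk1b22 is between 34.0 and 83.9 per 100 in the plotted T-cell clusters 1, 2, 4 and 5 and near 0.5 in control striated duct, and Klk1b27 reaches 83.3 in control plasmacytoid dendritic cells.

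Klk1b27 was low in number but unevenly placed. The dendritic cells divided into a plasmacytoid-like set with 18 control and 41 IR cells and a mature-like set with 26 and 47 cells. Plasmacytoid cells are the type known for interferon production. Compared with the mature-like set, the plasmacytoid-like set met 6 of 6 plasmacytoid markers. It also met 3 of 5 markers of each of 2 conventional dendritic types, cDC1 and cDC2. Whether it also holds conventional dendritic cells was not tested. The plasmacytoid-like set held 15 Klk1b27 UMIs in 10 of 18 control cells (149 CPM) and 21 UMIs in 14 of 41 IR cells (98.6 CPM), whereas the mature-like set held 0 in both libraries at medians of 5694 and 5419 UMIs per cell, against 5634 and 4825 in the plasmacytoid-like set. A floor of 3 UMIs per library stood in for the 0 of mature-like cells. The plasmacytoid-like level was then 8.59 times theirs in control and 10.2 times in IR. With the count of 0 itself, and no floor, the lower limits of the ratio were 6.16 and 7.55. They are not limits of the folds with the floor. It was 59.2 times the T-cell level in control (24.9 to 147) and 29.9 times in IR (15.9 to 55.6). B-cells held 2 and 1 UMIs, and acinar and Etv1+ cells 0 in both libraries.
Thinned to 1000 UMIs, 1 of 18 control and 5 of 41 IR plasmacytoid-like cells kept a Klk1b27 UMI, against 0 of 823 and 0 of 809 B-cells, so a single cell is barely above the level of 1 UMI. Klk1b27 UMIs numbered 83.3 per 100 Klk1 UMIs in these control cells (39.1 to 175) and 48.8 in IR (27.5 to 84.1), against 0.618 (0.382 to 0.947) and 0.220 (0.0266 to 0.798) in striated duct-like cells. Klk1 itself stood at 179 and 202 CPM in plasmacytoid-like cells, 1.39 times (0.812 to 2.23) the B-cell level in control and 5.12 times (3.45 to 7.49) in IR. Cells with both genes numbered 5 of 18 and 5 of 41, where the product of the shares gives 5 and 6.83.
T-cell cluster 4 also held Klk1b27, at 7 UMIs in 7 cells in control (10.6 CPM) and 20 UMIs in 18 cells in IR (14.0 CPM). The small T-cell cluster 15 held 1 and 2 UMIs (6.29 and 14.1 CPM), too few to set it apart from cluster 4. T-cell cluster 1 held 0 UMIs in 577 and 1009 cells, which allows up to 0.520% and 0.297% of cells with a UMI. In striated duct-like cells Klk1b27 had 21 UMIs in 18 of 77 control cells (307 CPM, 190 to 469) and 2 UMIs in 25 IR cells (88.7 CPM, 10.7 to 320). The IR level was 0.289 of the control level, with an interval of 0.0328 to 1.18 that includes 1.

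Klk1b5 had too few UMIs for a comparison between conditions. It had 42 UMIs in the whole control library and 23 in the IR library, of which 12 and 2 were in striated duct-like cells (175 and 88.7 CPM) and 23 and 17 in barcodes over the mitochondrial limit. No B-cell had a UMI, and T-cells held 0 and 1. Its transcript is the one most like Klk1's, so misassigned Klk1 reads cannot be told apart from it here.

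Further family members were found in both places, the duct and the T-cells. Of all 37 Klk genes 16 had no UMI in either library, and of the 32 that are not members 5 had at least 20 UMIs in kept cells. Klk1b11 and Klk1b9 were striated duct genes, with 62 and 27 UMIs of Klk1b11 (906 and 1197 CPM) and 53 and 14 UMIs of Klk1b9 (775 and 621 CPM) in control and IR, and Klk1b21 had 10 and 2 UMIs there. Klk1b24 was sparse everywhere, at 5 and 0 UMIs in striated duct-like cells and 17 and 20 in T-cells. Klk8, which encodes neuropsin and lies outside the Klk1 branch, held 921 UMIs in control T-cells (232 CPM) and 2011 in IR T-cells (266 CPM), and 0 UMIs in striated duct-like cells of both libraries. It was highest in T-cell cluster 5 at 322 and 370 CPM, whereas among T-cell clusters Klk1b22 was highest in cluster 4.
The genes most like Klk1 over 24 points of class and library, by Pearson correlation of log2(CPM + 1) among 10404 other genes, were Krt7 (0.92), Klk1b26 (0.91), Klk1b9 (0.91), Klk1b11 (0.91) and Crisp3 (0.90). Those most like Klk1b27 were Prdx5 (0.81), Ndufs7 (0.80) and Mpnd (0.79), none of them a Klk gene. Klk1b27 had only 111 UMIs in kept cells. A point needed 20 cells, so the 18 control plasmacytoid-like cells were not among the points. The points share 2 libraries and differ in depth, and the values are descriptions.

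Several genes around the kallikreins were highest in other classes. The striated duct-like class held only 68411 control and 22554 IR UMIs, so a low count there does not show that a gene is absent. Of 13 genes of the kallikrein-kinin system and its inhibitors, 6 had at least 20 UMIs in kept cells. The kininogen genes Kng1 and Kng2 had 0 UMIs, and the kinin receptors Bdkrb1 and Bdkrb2 had 6 and 1. Spint2, an inhibitor of membrane serine proteases, was highest in striated duct-like cells at 234 CPM (134 to 380) in control and 532 CPM (275 to 929) in IR, as was Spint1 at 43.9 and 44.3 CPM from 3 and 1 UMIs. Serping1, the plasma kallikrein and complement inhibitor, was at 1568 CPM in control and 1872 CPM in IR stromal cells and at 0 in striated duct-like cells. Ace and Mme, which break down kinins, were highest in control in stromal cells at 88.1 and 96.9 CPM, and Cpe, a carboxypeptidase, had 374 CPM in the 18 IR stromal cells, where 1 cell held 31 of 34 UMIs.
Of 11 genes listed as submandibular duct products, some of them Klk1b genes, 5 reached 20 UMIs, among them Egf, Esp4, Klk1b9 and Klk1b24. Klk1b9, the third epidermal growth factor-binding protein, was highest in striated duct-like cells in both libraries (above). Egf, whose precursor is known as a substrate of Klk1b proteases, was highest in Etv1+ cells at 22.6 and 19.5 CPM. Striated duct-like cells held 1 and 0 Egf UMIs, and their depth was too low to tell a lower level from an equal one. Ren1 had 1 and 0 UMIs in all kept cells, and Smgc had 0. Esp4 had 105 UMIs in kept control cells and 2 in IR cells.
Of 8 substrate and transport genes, 7 reached 20 UMIs. The sodium channel subunit Scnn1b had 5 and 6 UMIs in striated duct-like cells (73.1 and 266 CPM) and Scnn1a 0 and 1, out of 23 Scnn1a UMIs in all kept cells. The membrane proteases Prss8, St14 and Tmprss2 were at 1, 1 and 0 UMIs in control striated duct-like cells. They were highest in intercalated duct-like or Etv1+ cells, at 20.8, 26.9 and 20.8 CPM in control. At the depth of the striated duct-like class a lower level could not be told from an equal one.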

How the data were processed

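Gene-by-barcode UMI counts were deposited by the authors as 1 filtered matrix per library, made with Cell Ranger 3.0.1 on mm10 per the labels. Seurat 3 is also named there. The counts were not normalised and no column was left unused. Here barcodes with 200 or more genes and 5% or less mitochondrial UMIs were kept, integrated (Seurat 5.3.0, R 4.3.3, 2000 variable genes with all Klk genes removed, 30 components, resolution 0.4), and the duct, endothelial, stromal and dendritic clusters divided again (20 components, resolution 0.8). Classes were named from marker genes, by steps chosen after the clusters were seen, and cell names in the report stand for cells that resemble those types. Scrublet, run through scanpy 1.11.5, called 37 of 8664 cells, which is too few to be relied on, so no doublets were removed and the top 6% of scores were left out as an alternative.
UMIs were summed by class and library and divided by the class total (CPM). With 1 library per condition no test was run. Intervals are exact 95% Poisson (counts), Clopper-Pearson (shares) or conditional binomial (ratios) intervals, computed with scipy 1.17.1. A floor of 3 UMIs stood in for 0 in a fold but not in its limit, and no fold was given where both groups were at or under it. Shares were compared after thinning to 1000 UMIs per cell. Genes were compared between conditions from 100 UMIs over both libraries, at 2-fold. edgeR 4.0.16 was used only for TMM factors, which were tried as an alternative scaling. The scripts were tested on simulated counts.
Besides the 5 members, the text names Klk genes with 20 or more UMIs in kept cells, the 5 genes most like Klk1 and the 3 most like Klk1b27, and members of 3 lists, mainly those with 20 UMIs. One listed gene is counted in its lists but not reported here. Further listed genes, and single cells or barcodes, were chosen after their values were seen. Members and lists were chosen with earlier results of these data known. Gene positions came from GENCODE M21 (GRCm38) and promoters from RefSeq. The alternatives tried were the barcode limits, clustering with Klk genes, without integration and at another resolution, doublet scores, scaling and thresholds. A further 2 were added after the data were seen (scaling without haemoglobin genes, and without the cell richest in Klk1). In IR that cell was tied with another at 133 Klk1 UMIs, and only the first listed was left out.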

Additional observations from a re-analysis of the deposited data

Results flagged for a closer look

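Barcodes over the mitochondrial limit were left out of the comparisons of cell classes. Members were flagged where their CPM interval there lay wholly above that of the kept barcodes of the same library. Klk1 stood at 5714 CPM in control and 2872 CPM in IR, Klk1b26 at 143 and 219 CPM, Klk1b22 at 43.2 and 39.1 CPM, and Klk1b5 at 11.4 and 6.28 CPM. Klk1b27 was flagged in control, at 13.4 CPM. In IR it was not, at 4.80 CPM (2.56 to 8.21) against 2.65 CPM (1.99 to 3.46) in kept barcodes.

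The pooled IR over control ratio of Klk1 lay on opposite sides of 1 in a pair of clusters, and each ratio rests largely on 1 cell. In T-cell cluster 4 the ratio was 1.66, where a single IR cell held 80 of 194 UMIs. In intercalated duct cluster 7.1 it was 0.0625, with 35 control UMIs, 27 of them in 1 cell, and 1 IR UMI. A shift across the cells of either cluster cannot be read from these ratios. The difference between the clusters was not tested.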

How the results depend on the processing

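No paired analysis was possible because each condition had 1 library, and leaving out a replicate was likewise not possible. Of 396 values under another setting, 320 were classed as the same, 74 as moved and 2 as reversed, and the causes were not tested. A value classed as the same could still change direction. The IR over control ratio of Klk1b22 was 1.15 in B-cells and 1.09 in T-cells. Over the settings it ran from 0.906 to 1.23 and from 0.965 to 1.16, with every value classed as the same. Klk1 in striated duct-like cells, in control and IR, was at 43843 and 30326 CPM with a mitochondrial limit of 10%, 44882 and 29873 without that limit, 33784 and 14149 with 500 genes per cell, 46864 and 35197 when clustered with Klk genes, 46105 and 37443 at resolution 1.0, 42433 and 43832 without the highest doublet scores, 66904 and 49631 when scaled without abundant genes, and 46705 and 36109 without the cell richest in Klk1. It was at 43183 CPM in IR without integration and 51526 CPM in control without haemoglobin genes. The IR over control ratio of Klk1 in these settings was 0.692, 0.666, 0.419 and 0.751 for the first 4, 0.894 without integration, 0.742 without abundant genes and 0.527 with TMM factors. It reversed to 1.03 without the highest doublet scores, and that of Klk1b26 reversed to 0.996 with TMM factors. The class held 58 IR cells without the mitochondrial limit, and 19 control and 8 IR cells with 500 genes. With 500 genes the IR over control ratio of Klk1b26 UMIs per Klk1 UMI was 3.46. Of the 129 genes compared in striated duct-like cells, those higher and lower in IR numbered 26 and 22 at 1.5-fold and 3 and 5 at 3-fold. With TMM factors they numbered 2 and 37 at 2-fold. Lower UMI limits let in more genes, whose number is not given here, with 50 and 45 past 2-fold from 20 UMIs and 1219 and 165 from 1 UMI. The class held 68411 control and 22554 IR UMIs, so any gene with 1 UMI in each library counts as higher in IR. The counts from 1 UMI thus reflect depth and show no direction. The 25 IR striated duct-like cells, at a median of 720 UMIs, limit every comparison of the class.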
